A study of Homo sapiens with 18 samples.

Results

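The comparison set K562 cells carrying dCas9-KRAB and guide CR4 (KRAB_CR4, 3 libraries) against K562 cells carrying dCas9-KRAB and guide CR10 (KRAB_CR10, 3 libraries), chosen by library title, which makes 6 of the 18 RNA-seq libraries of the series. K562 is an established human erythroleukaemia line. In both groups a lentivirus, applied with polybrene at 4 µg/ml, delivered dCas9-KRAB for stable expression together with a guide aimed at the HS2 enhancer, and puromycin selection at 1 µg/ml began some 96 hours later. The question was whether the choice of guide at 1 enhancer alters what the repressor does to transcript levels, at the globin genes and elsewhere. Reference values come from dCas9_CR4 and dCas9_CR10, the same guides with dCas9 and no repressor domain, and from KRAB_no_gRNA, the repressor with no guide, each with 3 libraries. A further 3 untransduced libraries entered the model only to help estimate the spread. The position and sequence of CR4 and CR10 within HS2 are not given in the sources used here, and guide and dCas9-KRAB levels were not analysed here. Nothing in the labels says whether the 3 libraries of a group came from separate transductions. The spread between libraries on which the p-values rest may thus be technical, and in the main fit it was pooled over all 18.

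HS2 is 1 of the DNase hypersensitive sites of the locus control region on chromosome 11, an enhancer that acts over a distance on the genes of the beta-globin cluster. These are HBE1, the embryonic epsilon chain, HBG1 and HBG2, the fetal gamma chains, HBD and HBB, the adult delta and beta chains, and HBBP1, a transcribed pseudogene. dCas9 binds where its guide directs it without cutting, and the KRAB domain recruits TRIM28 and, through it, SETDB1, an enzyme that writes the repressive histone mark H3K9me3. K562 cells express embryonic and fetal globins at high levels and adult beta-globin hardly at all.

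The 6 libraries held 23529200 to 29173720 counts each. All 12 markers fixed for K562 and erythroid cells were above a mean of 1 CPM (each gene's share of its library's counts, scaled by TMM to a common library size) over the 6 libraries. Under 1 CPM were 4 of 7 megakaryocyte, 5 of 7 myeloid, 3 of 6 lymphoid and 1 of 4 packaging or epithelial markers. GP9, PF4 and PPBP of megakaryocytes, ELANE of granulocytes and MS4A1 of B cells had no count in any of the libraries. Other members were expressed, with means of 92.3 CPM for PTPRC, 16.7 for LYZ, 9.81 for CD33, 5.69 for ITGA2B and 5.23 for CD3D. KRT8 averaged 487 CPM, KRT18 384 CPM and EPCAM 98.3 CPM. Ribosomal RNA took 0.570%, 4.02% and 1.20% of counts in KRAB_CR4 libraries 1, 2 and 3, against 3.52%, 1.44% and 1.17% in KRAB_CR10. The libraries numbered 3 stood apart from those numbered 1 and 2 in both groups: on the first principal component of the 6 libraries (69.8% of the variance over 10358 genes) they scored -28.0 and -20.7, and the other 4 scored 8.19 to 17.7.

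No gene passed an adjusted p of 0.05 between KRAB_CR4 and KRAB_CR10: the edgeR quasi-likelihood test called 0 of 14713 genes (0%), and DESeq2 called 0 as well. At an unadjusted p under 0.05 edgeR had 132 genes (0.897%), of which 96 (0.652%) were lower in KRAB_CR4 and 36 (0.245%) higher, and DESeq2 had 143 (0.972%). Where no gene differs, p-values under 0.05 should make up a share of about 0.05, so both fits were on the conservative side. Their adjusted p-values carry little information about single genes, and neither fit took library numbers into account. Among 9265 genes with a mean of at least 10 CPM, 98.1% had a 95% interval of the fold change that lay inside 2-fold either way, and 76.4% had one inside 1.5-fold. A difference of over 2-fold between the guides was thus outside the interval for most expressed genes.

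Of the 6 genes of the targeted cluster, 3 were near the top of the ranking. By unadjusted p, HBG2 ranked 4, HBE1 ranked 5 and HBG1 ranked 13 of the 14713 genes, while HBBP1 ranked 244, HBD 3199 and HBB 3300, all with the lower mean in KRAB_CR4. Among the 10358 genes with a mean of at least 5 CPM, HBG2 ranked 1, HBE1 ranked 2 and HBG1 ranked 4. HBE1, HBG1, HBG2 and HBBP1 were lower in each KRAB_CR4 library than in any KRAB_CR10 library, a pattern that 412 of all tested genes (2.8%) showed. Of the 4979 genes with a mean of at least 50 CPM, 77 (1.55%) showed it. When library numbers were fitted as a block over the 15 lentiviral libraries, 510 of 14599 genes (3.49%) had an unadjusted p under 0.05, 0 passed, and HBG2, HBG1, HBBP1 and HBE1 held ranks 1 to 4.

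HBE1, the cluster gene nearest to the locus control region, read 55.8, 68.1 and 60.7 CPM in KRAB_CR4 libraries 1, 2 and 3, against 95.1, 86.4 and 73.3 CPM in KRAB_CR10 libraries 1, 2 and 3. The groups did not overlap, and the gap between the nearest pair of libraries, 68.1 and 73.3 CPM, was small beside the spread within KRAB_CR10. The mean was 61.6 ± 6.20 CPM in KRAB_CR4 and 84.9 ± 10.95 CPM in KRAB_CR10 (SD, n = 3 each), a log2 fold change of -0.46 ± 0.13 (SE, 95% interval -0.75 to -0.18), or 1.38-fold lower. Its unadjusted p in the edgeR fit was 0.00262 and its adjusted p 1.00, so the difference did not pass over all genes tested. In these bulk libraries less HBE1 RNA per cell and fewer cells with HBE1 RNA cannot be told apart.

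**Figure D1:**
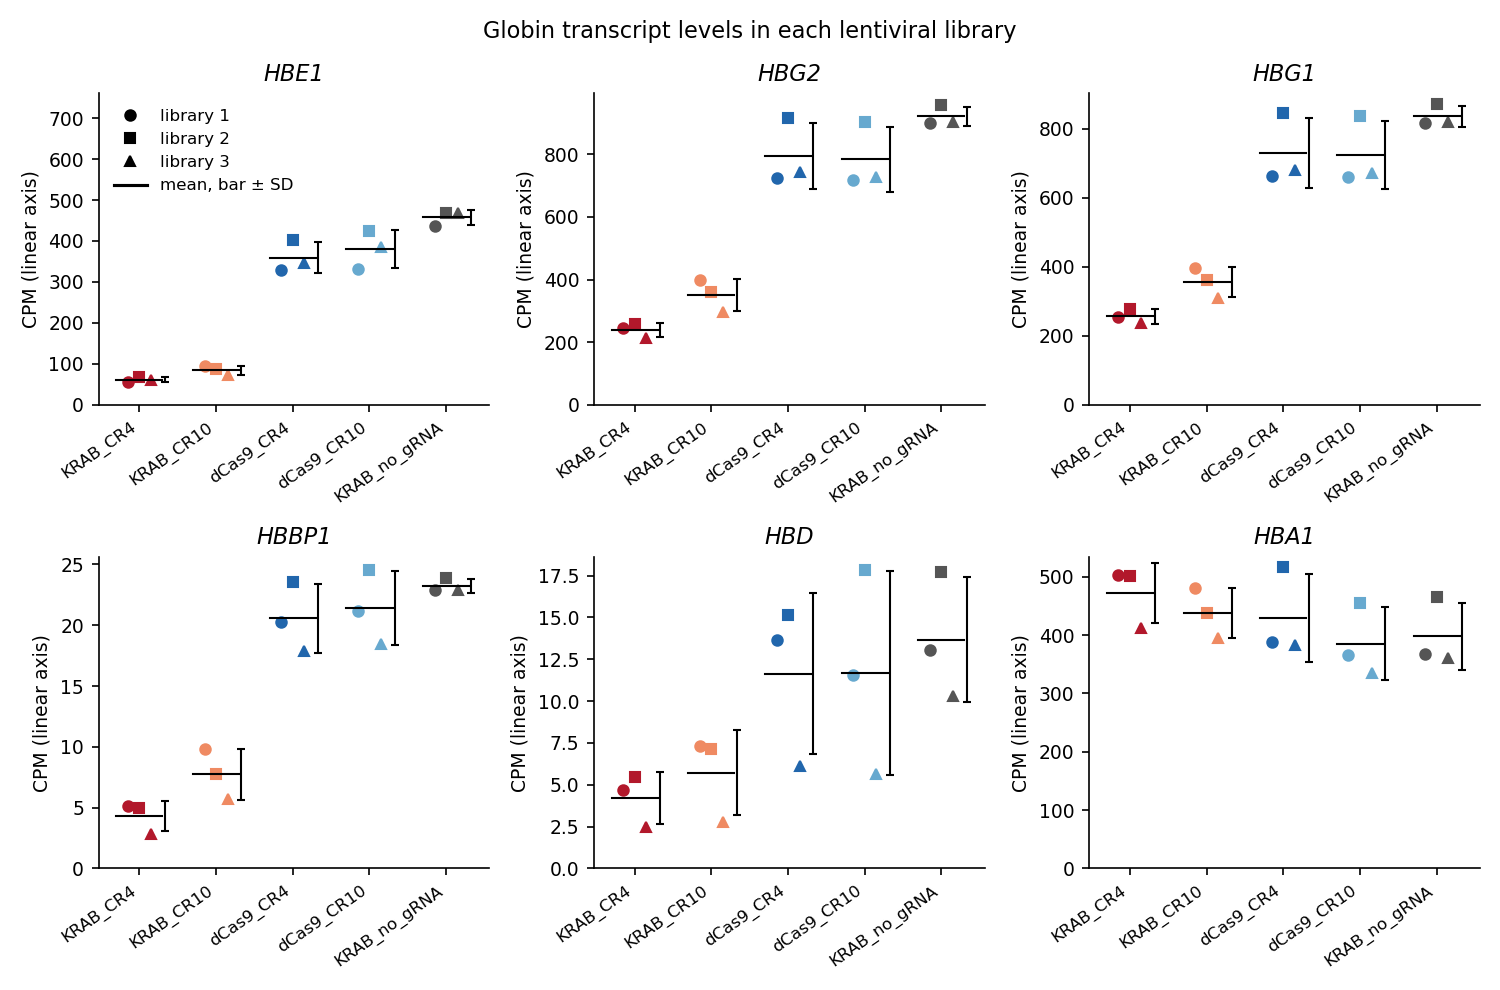
TMM-scaled CPM of 5 beta-globin cluster genes and, for comparison, HBA1 in each library of the 5 lentiviral groups, with a linear axis from 0. Symbols mark library numbers, long lines group means and bars SD (n = 3). In the panels of HBE1, HBG2, HBG1 and HBBP1 every KRAB_CR4 symbol lies below every KRAB_CR10 symbol, both far below the dCas9 groups, while in the HBD and HBA1 panels KRAB_CR4 and KRAB_CR10 overlap.

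HBG2 read 245.6, 258.7 and 214.8 CPM in KRAB_CR4, against 397.1, 359.1 and 297.2 CPM in KRAB_CR10. The highest KRAB_CR4 library was below the lowest KRAB_CR10 library, and library 3 was the lowest of its group in both. The log2 fold change was -0.55 ± 0.16 (SE, 95% interval -0.89 to -0.21), or 1.47-fold lower, with an unadjusted p of 0.00249 and an adjusted p of 1.00 in the edgeR fit.

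HBG1 read 253.4, 279.2 and 237.0 CPM in KRAB_CR4, against 397.1, 362.8 and 310.7 CPM in KRAB_CR10. It differed by a log2 fold change of -0.48 ± 0.16 (SE, 95% interval -0.82 to -0.13; unadjusted p = 0.00764, edgeR adjusted p = 1.00). HBG1 and HBG2 are near-identical and the counting could split reads between them, so their sum is the safer measure. The sum was 496.2 ± 43.1 CPM in KRAB_CR4 and 708.0 ± 93.9 CPM in KRAB_CR10 (SD, n = 3 each), a log2 fold change of -0.51 ± 0.15 (SE, 95% interval -0.85 to -0.18).

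HBBP1, the pseudogene between the gamma and delta genes, was read at a low level, with 118, 112 and 70 counts in KRAB_CR4 libraries, against 246, 224 and 142 in KRAB_CR10 libraries. Its fold change was the largest of the cluster in size (log2 -0.85 ± 0.46, SE) but the 95% interval, -1.85 to 0.15, included 0. That interval takes its spread from all 18 libraries, among them the untransduced ones, which read 42.4, 5.76 and 30.8 CPM. In edgeR fits at nearly the same fold change, the unadjusted p of HBBP1 was 0.0803 with all libraries, 0.00176 with the lentiviral libraries only and 0.0162 with only the groups compared, and it passed over all genes in none of them. The adult genes gave less. HBD had 108, 124 and 60 counts in KRAB_CR4, against 182, 206 and 70 in KRAB_CR10, and the groups overlapped (log2 fold change -0.45, 95% interval -1.69 to 0.78). This interval too takes its spread from all 18 libraries, and the untransduced ones read 18.4, 2.98 and 13.9 CPM. Between KRAB libraries of the same number HBD differed by -0.63, -0.37 and -0.18. With library numbers as a block over the lentiviral libraries its unadjusted edgeR p was 0.0285, and it did not pass over all genes. HBB had at most 12 counts in any of the 6 libraries, and a difference was not detectable at this depth.

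HBD was the only 1 of the 6 cluster genes matched in the RefSeq promoter table (GRCh38.p14), and the 250 bases before its annotated start are shown as an example of the promoters on which HS2 acts. Capitals mark the matches to CCAAT and to AGATAA, which is read on the opposite strand as TTATCT.
HBD promoter, chr11:5234484-5234733, minus strand: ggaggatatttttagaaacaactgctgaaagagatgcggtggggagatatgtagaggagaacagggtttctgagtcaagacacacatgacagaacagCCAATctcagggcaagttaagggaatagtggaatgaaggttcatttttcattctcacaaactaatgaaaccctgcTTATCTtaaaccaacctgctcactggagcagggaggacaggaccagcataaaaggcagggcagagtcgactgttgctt
The CCAAT match began at -153 and the GATA match at -78 relative to the annotated start. Searched on both strands, CCAAT occurs in 32% and AGATAA in 9.17% of 35116 promoters in windows of the same length, while CCACACCC (2.97% of promoters) and TATAAA (10.7%) had no match in the HBD window.

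The alpha-globin cluster lies on chromosome 16, away from HS2, and encodes the chains that pair with the beta-like globins. HBA1, an adult alpha gene, read 503.4, 501.0 and 412.6 CPM in KRAB_CR4, against 480.4, 437.5 and 394.8 CPM in KRAB_CR10. HBA2, its near-identical copy, read 445.3, 450.9 and 347.0 CPM in KRAB_CR4, against 422.3, 372.7 and 340.2 CPM in KRAB_CR10. Both overlapped between the groups, with log2 fold changes of 0.11 (95% interval -0.32 to 0.54) and 0.13 (95% interval -0.34 to 0.60). HBZ, the embryonic zeta chain, was at 304.5 ± 58.1 CPM in KRAB_CR4 and 281.5 ± 63.5 CPM in KRAB_CR10 (SD, n = 3 each), with a wide interval of -0.55 to 0.78 on the log2 scale. HBQ1 was at -0.06 (95% interval -0.52 to 0.39), and HBM had no count in the 6 libraries. None of the 4 alpha-cluster genes tested had an unadjusted p under 0.05, against 3 of the 6 beta-cluster genes and 0.897% of all tested genes. At that share, none among 4 genes says little about the alpha cluster.

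The same pair of guides without the repressor domain gave no such gap at the globin genes. In the comparison of dCas9_CR4 with dCas9_CR10, which shares no library with the comparison of the KRAB groups, edgeR called 0 of 14713 genes (0%) and DESeq2 called 0, with 137 (0.931%) and 164 (1.11%) at an unadjusted p under 0.05. HBG2 averaged 795.1 ± 104.7 CPM in dCas9_CR4 and 783.4 ± 103.4 CPM in dCas9_CR10, HBG1 730.3 ± 101.1 and 723.8 ± 98.3 CPM in the same groups, and HBE1 358.9 ± 38.2 and 380.9 ± 46.7 CPM (SD, n = 3 each). The log2 fold changes were 0.02 for HBG2 (95% interval -0.32 to 0.36), 0.01 for HBG1 (-0.33 to 0.35) and -0.09 for HBE1 (-0.37 to 0.20). A difference of the size seen with KRAB lay outside the interval for HBE1, HBG1 and HBG2 with dCas9 alone. HBBP1 could not be placed as well (-0.06, 95% interval -0.99 to 0.88). The KRAB and dCas9 comparisons also differed in a shift by transcript length, given below.

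**Figure D2:**
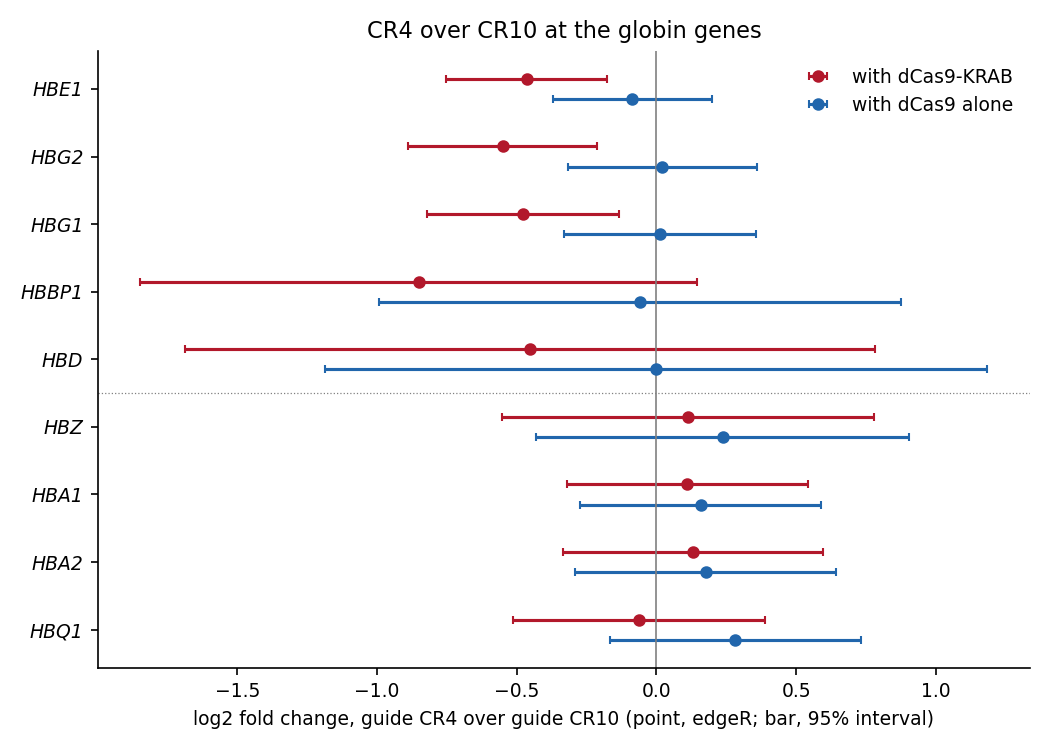
Log2 fold change of CR4 over CR10 for globin genes from the edgeR fit, in the KRAB groups (red) and in the dCas9 groups (blue), with 95% intervals. Genes above the dotted line belong to the beta-globin cluster. With KRAB the intervals of HBE1, HBG2 and HBG1 lie below 0, from -0.55 to -0.46 at their centres, while with dCas9 alone all 9 genes have intervals that include 0.

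Whether the guides differed by different amounts with and without the repressor domain was tested directly, as the KRAB difference minus the dCas9 difference. edgeR called 0 of 14713 genes (0%) in this test and DESeq2 called 0, with 51 (0.347%) and 49 (0.333%) at an unadjusted p under 0.05. HBG2 stood at -0.57 ± 0.22 (SE, 95% interval -1.05 to -0.09) on the log2 scale, HBG1 at -0.49 ± 0.22 (95% interval -0.97 to -0.005) and HBE1 at -0.38 ± 0.19 (95% interval -0.78 to 0.03). All 3 had an adjusted p of 1.00 in the edgeR fit, so the guide difference was not shown to depend on the repressor domain over all genes tested.

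Set against the cells that carried the repressor and no guide, the means of the 6 cluster genes were lower with both guides, to different degrees. HBE1 stood at 13.5% of the KRAB_no_gRNA mean in KRAB_CR4 and at 18.6% in KRAB_CR10. HBBP1 stood at 18.5% in KRAB_CR4 and 33.4% in KRAB_CR10. HBG2 stood at 26.04% in KRAB_CR4 and 38.1% in KRAB_CR10, HBG1 at 30.7% and 42.7% in the same groups, and HBD at 30.7% and 41.9%. HBB, on few counts, stood at 51.6% in KRAB_CR4 and 76.9% in KRAB_CR10. Measured instead against dCas9 with the same guide, HBE1 was at 17.2% in KRAB_CR4 and 22.3% in KRAB_CR10, and HBG2 at 30.1% and 44.8%. With either guide the share left was lower for HBE1 than for HBG2 and lower for HBG2 than for HBG1.

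Ratios between globin genes within a library do not depend on scaling between libraries, whereas a share of all counts is itself scaled by the library total. Counting that share, 4 ratios were compared with an exact two-sided permutation test, in which 3 libraries against 3 cannot go below p = 0.1. Summed counts of the beta-globin cluster over those of the alpha-globin cluster were 0.431, 0.482 and 0.512 in KRAB_CR4, against 0.716, 0.762 and 0.708 in KRAB_CR10. The groups did not overlap (log2 difference -0.62, exact p = 0.1, adjusted over the 4 ratios 0.2). The same ratio was 1.75 ± 0.12 in dCas9_CR4 and 2.00 ± 0.24 in dCas9_CR10 (SD, n = 3 each; log2 difference -0.19, exact permutation p = 0.2) and 2.32 ± 0.36 in KRAB_no_gRNA. As a share of all counts the beta-globin cluster held 0.0537%, 0.0593% and 0.0540% in KRAB_CR4, against 0.0896%, 0.0818% and 0.0722% in KRAB_CR10 (log2 difference -0.54, exact p = 0.1, adjusted 0.2).

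The balance of embryonic to fetal transcripts did not separate the guides. HBE1 over the sum of HBG1 and HBG2 was 0.112, 0.127 and 0.134 in KRAB_CR4, against 0.120, 0.120 and 0.121 in KRAB_CR10 (log2 difference 0.05, exact p = 0.7, adjusted 0.7). The ranges overlapped, and both lay well below 0.236 ± 0.0074 in dCas9_CR4, 0.253 ± 0.019 in dCas9_CR10 and 0.260 ± 0.0092 in KRAB_no_gRNA (SD, n = 3 each). HBG2 over HBG1 was 0.969, 0.926 and 0.906 in KRAB_CR4, against 1.00, 0.990 and 0.957 in KRAB_CR10, lower in 3 of 3 pairs of libraries with the same number but with overlapping groups (exact p = 0.2, adjusted 0.267). That ratio was 1.09 in dCas9_CR4, 1.08 in dCas9_CR10 and 1.10 in KRAB_no_gRNA, and it depends on how reads were split between near-identical genes.

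**Figure D3:**
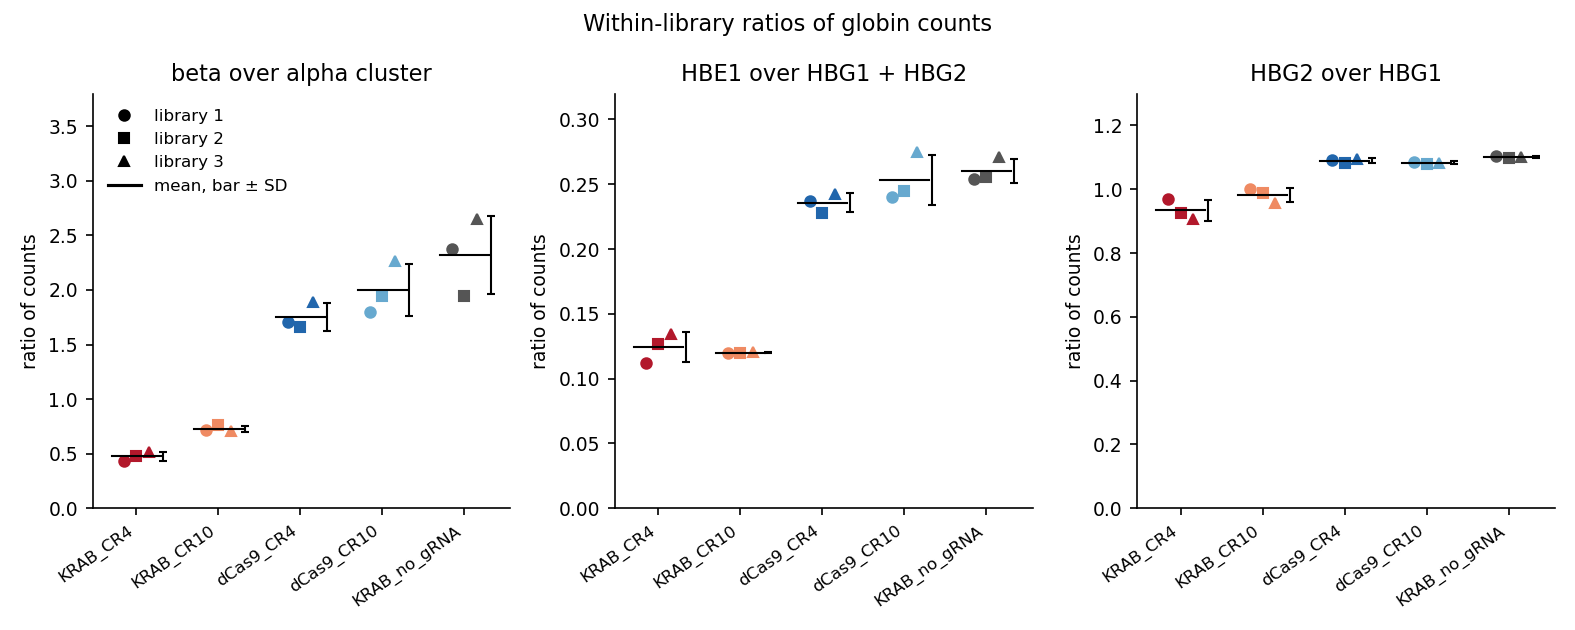
Ratios of summed counts within each library for the 5 lentiviral groups, on linear axes from 0, with symbols for library numbers, lines for means and bars for SD (n = 3). The beta over alpha ratio of KRAB_CR4 (0.431 to 0.512) lies below that of KRAB_CR10 (0.708 to 0.762), whereas HBE1 over gamma is close to 0.12 in both, under the values of the 3 groups without a guided repressor.

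The libraries of both KRAB groups also differed by transcript length, and the globin transcripts are short (HBG2 614 bases, HBE1 616, HBG1 779). Among genes with a mean of at least 5 CPM and a known length, the 339 genes of at most 900 bases had a median log2 difference of -0.12 between KRAB_CR4 and KRAB_CR10, and genes over 4000 bases one of 0.04. Between dCas9_CR4 and dCas9_CR10 the medians of the same genes were 0.02 and -0.02. The dCas9 comparison thus lacked the shift seen with KRAB. Compared by library number, the short genes had a median of -0.35 in the number 1 libraries, against 0.04 in the number 2 libraries and -0.05 in the number 3 libraries. That split depends on the numbering, and libraries 1 and 2 correlated more across numbers than within them. HBE1 differed by -0.77, -0.34 and -0.27 between the libraries numbered 1, 2 and 3, and HBG2 by -0.69, -0.47 and -0.47. HBA1 and HBA2, of 577 and 576 bases, were higher in KRAB_CR4 in all 3 pairs. Of the 339 short genes 2.06% had a value below that of HBG2, 4.42% below HBE1 and 3.83% below HBG1. With each library's trend on length removed, the log2 fold changes were -0.40 for HBG2, -0.37 for HBG1 and -0.32 for HBE1. Their unadjusted p-values in that edgeR fit were 0.0104, 0.0138 and 0.00323. How much of the globin difference goes with transcript length was not tested beyond these values.

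**Figure D4:**
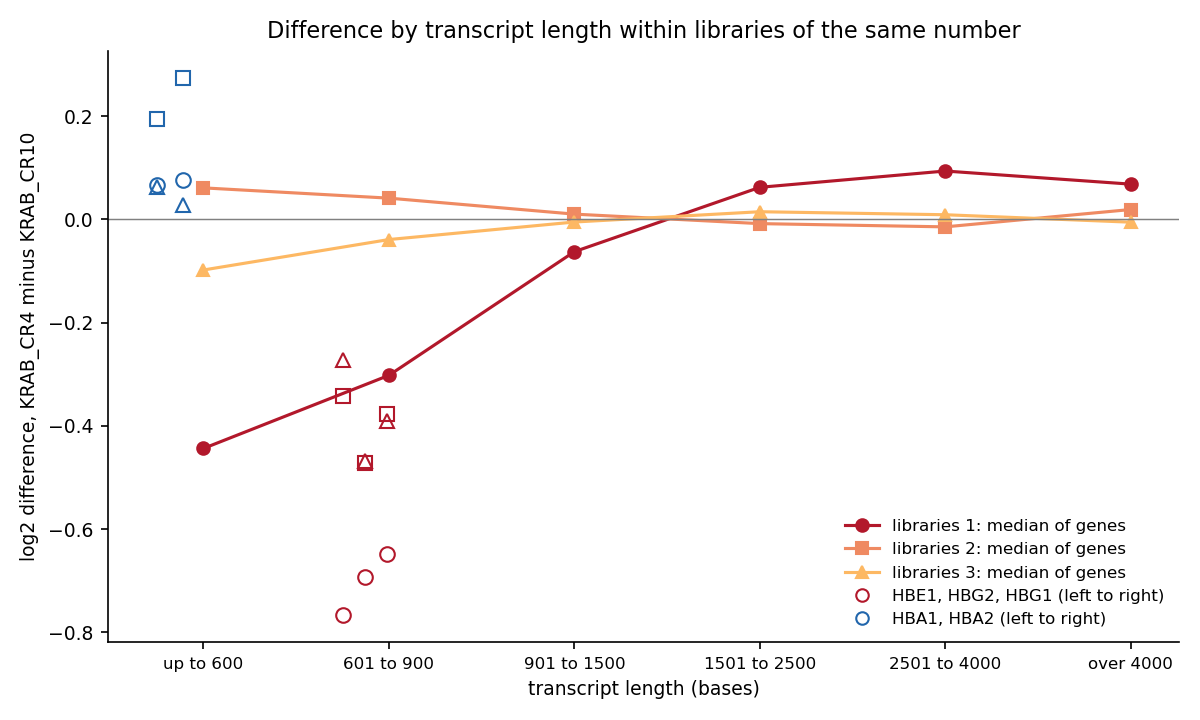
Median log2 difference of KRAB_CR4 minus KRAB_CR10 by class of transcript length, within libraries of the same number (filled symbols and lines), with single globin genes as open symbols. The line of the number 1 libraries goes down to -0.44 in genes of at most 600 bases while the others stay between -0.10 and 0.06. The open red symbols of HBE1, HBG2 and HBG1 lie below the line of their own libraries in all 3 pairs.

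Outside the globin clusters no gene passed, and the genes with the smallest unadjusted p and a mean of at least 5 CPM are given as values. On the lower side stood COX17, a copper chaperone for cytochrome c oxidase, at 3.54, 6.46 and 4.56 CPM in KRAB_CR4 and 9.13, 7.59 and 8.70 CPM in KRAB_CR10 (log2 fold change -0.80, unadjusted p = 0.00559 in the edgeR fit). MAGOH, a core protein of the exon junction complex, averaged 32.1 ± 3.47 CPM in KRAB_CR4 and 43.8 ± 3.23 CPM in KRAB_CR10 (SD, n = 3 each; log2 fold change -0.45). The other 6 were RBIS, H2BC11, CKLF, NDUFB1, MRPL53 and SEC61G, between -0.68 and -0.40. They include a histone gene, a subunit of respiratory complex I, a mitochondrial ribosomal protein and a subunit of the protein translocon of the endoplasmic reticulum. Of these 8 genes 7 had transcripts of at most 900 bases, as had 3.43% of all genes with a known length. Between the libraries numbered 1, 2 and 3 COX17 differed by -1.34, -0.23 and -0.92, and MAGOH by -0.71, -0.20 and -0.45. Whether the length shift has a part in these values was not tested.

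On the higher side RBM3, a cold-inducible RNA-binding protein, had 283.7, 250.3 and 254.0 CPM in KRAB_CR4, against 187.7, 237.2 and 200.8 CPM in KRAB_CR10 (log2 fold change 0.33, unadjusted p = 0.0474 in the edgeR fit). ZNF700, ZNF414, EEFSEC, MINDY4, SLX1B, PLPPR3 and FAM241B stood between 0.31 and 0.48. EEFSEC is the elongation factor for selenocysteine, and SLX1B has a near-identical copy, so its value is uncertain. None of these 8 had a transcript of at most 900 bases. Singled out after the values were seen, SERPINB8 had the smallest p of all (edgeR adjusted p = 1.00), with 0, 0 and 0 counts in KRAB_CR4 and 16, 6 and 6 in KRAB_CR10. With 3 fragments over the group, or 6 counts with both mates counted, as the KRAB_CR4 floor, it was 4.15-fold lower. That value leaves out the spread between libraries and the counting error of KRAB_CR10.

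**Figure D5:**
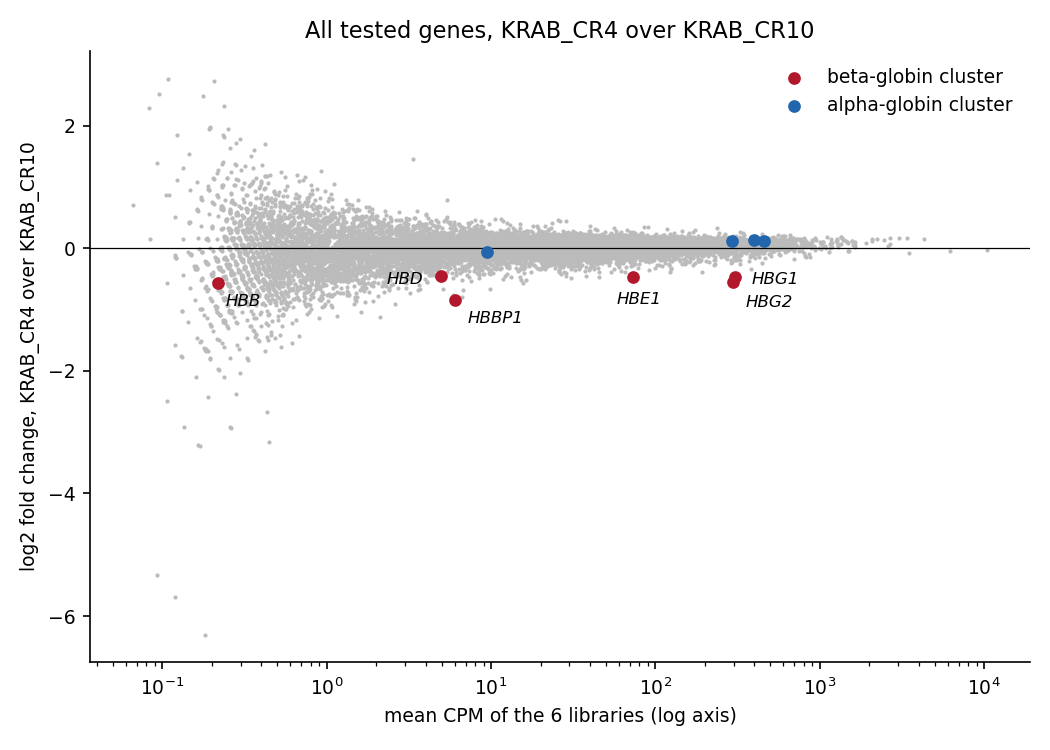
Log2 fold change of KRAB_CR4 over KRAB_CR10 against the mean CPM of the 6 libraries (log axis) for the 14713 tested genes in grey, with beta-globin cluster genes in red and alpha-globin cluster genes in blue. HBE1, HBG1 and HBG2 lie at the lower edge of the genes of their level, at -0.46, -0.48 and -0.55, while the spread widens among genes under 1 CPM.

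The neighbours of the cluster on chromosome 11p15.4 showed no gap of the size seen at the globin genes. Of 50 listed genes 29 were expressed enough to test, with log2 fold changes from -0.13 to 0.32 and a median of 0.06, against 0.02 over all tested genes. None had an unadjusted p under 0.05, which says little in a list of this size, as only 0.897% of all tested genes had one. RRM1, a subunit of ribonucleotide reductase, was at 0.13 (95% interval -0.14 to 0.41) and NUP98, a nuclear pore protein, at 0.11 (-0.45 to 0.68).

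The factors that act at HS2 and the partners of KRAB gave small values, with intervals that leave room for modest differences. GATA1, the erythroid master regulator, averaged 229.4 ± 12.6 CPM in KRAB_CR4 and 218.6 ± 12.4 CPM in KRAB_CR10 (log2 fold change 0.07, 95% interval -0.17 to 0.31). NFE2, which binds HS2, was at 0.05 (-0.22 to 0.32), TAL1 at 0.10 (-0.31 to 0.51) and KLF1 at -0.0017 (-0.44 to 0.44). TRIM28 was at 0.16 (-0.17 to 0.49) and SETDB1 at 0.22 (-0.12 to 0.56). Of 25 erythroid transcription factors, 19 regulators of the fetal globin switch and 16 KRAB co-repressors none had an unadjusted p under 0.05, and their medians were 0.07, 0.02 and 0.06. With 0.897% of all genes under 0.05, a count of 0 in lists of this size says little about them. RUNX1 and USF1 were higher in each KRAB_CR4 library than in any KRAB_CR10 library (2.26% of all genes) and CBX3 was lower in each (2.8% of all genes).

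Lists of other red cell functions also stayed near the median of all genes. The median was 0.03 for 16 genes of haem synthesis, 0.07 for 12 of iron uptake and storage and 0.07 for 27 of the red cell membrane, and no member had an unadjusted p under 0.05. Of all tested genes 0.897% had one, so such counts in these and the following lists say little. UROD, an enzyme of haem synthesis, was at 0.07 (95% interval -0.18 to 0.33) and TFRC, the transferrin receptor, at 0.04 (-0.66 to 0.74). Cell cycle genes had a median of 0.08 (25 genes), hypoxia and glycolysis genes 0.07 (16), p53 targets 0.07 (12), sterol synthesis genes -0.00 (24) and immediate early genes -0.02 (16), again with no member under 0.05. The amino acid and unfolded protein response stood at 0.13 (28 genes, none under 0.05), and dCas9_CR4 against dCas9_CR10 gave -0.21 for it. Of 20 interferon genes (median -0.01) IFIT1 alone had an unadjusted p under 0.05, with the lower level in KRAB_CR4 and a mean under 1 CPM.

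Markers of other cell types gave small values too. The medians were 0.03 for 7 megakaryocyte, 0.06 for 10 myeloid and lymphoid and 0.06 for 4 epithelial markers, and CD8A was the only member with an unadjusted p under 0.05, on 0, 4 and 2 counts in KRAB_CR4 and 40, 10 and 12 in KRAB_CR10. With 0.897% of all tested genes under 0.05, such counts in short lists say little. Replication-dependent histones, whose mRNAs are short and mostly lack poly(A), had a median of -0.27, with 11 of 12 below 0, against 44.1% of all tested genes, and none under an unadjusted p of 0.05. H1-2 read 230.1, 285.4 and 295.9 CPM in KRAB_CR4, against 317.7, 290.1 and 339.3 CPM in KRAB_CR10. RN7SL1 and RN7SK, abundant RNAs without poly(A), were at 0.01 and -0.34 with intervals wider than 2-fold either way.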

How the data were processed

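The authors deposited raw counts per RefSeq transcript for each library. Per the submitters' processing notes the tools were Bowtie2, SAMtools, Picard, R 3.1.2 and DESeq, with build hg19; their roles, the counting tool and the annotation are not given in the sources used here. Per the labels' protocols RNA was selected on oligo-dT and tagged by Nextera transposase, which does not mark strand, so antisense partners cannot be told apart. All counts were even (0 odd values), as when both mates of a fragment are counted. Of 40709 accessions 39324 matched RefSeq and 516 GENCODE, and sums gave 24395 genes. Library totals ranged from 22805964 to 34032962 counts over the 18 libraries.

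After filterByExpr and TMM scaling, 14713 genes (99.97% of counts) were tested with the edgeR 4.0.16 quasi-likelihood test (R 4.3.3) in 1 fit of 6 group means over 18 libraries, with Benjamini-Hochberg adjustment at 0.05, checked on simulated data. The biological coefficient of variation was 21.6%. Intervals cover the spread between libraries and counting error, not molecules. Named were the globin genes, the 8 higher and 8 lower genes with the smallest p and a mean of at least 5 CPM, and up to 2 of the most abundant members per list; GATA1, NFE2, TAL1, KLF1, SETDB1, IFIT1 and CD8A were added after their values were seen, and others are marked. Transcript lengths came from the reference annotation. Genes, lists and members were chosen with earlier results of these data known.

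Deviations of same-numbered KRAB_CR4 and KRAB_CR10 libraries from their group means correlated at r = 0.34, 0.34 and 0.85 over 10358 genes, all above 0.1, and the numbers were read as pairs. Libraries 1 and 2 correlated more across numbers, at 0.64, than within them, so the check rests on the libraries numbered 3. It does not bear out the pairing of the libraries numbered 1 and 2. Alternatives were DESeq2 1.42.0, its size factors, other filters, other sets of libraries, the replicate block, halved counts, ribosomal RNA left out, each library left out, and, chosen after seeing the data, removal of a length trend. The ratio of the beta to the alpha cluster was also added after seeing the data. No pair of libraries of a group agreed within sampling noise (chi-square per degree of freedom 15.3 to 40.3).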

Additional observations from a re-analysis of the deposited data

How the results depend on the processing

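All 20 alternative settings called 0 genes between KRAB_CR4 and KRAB_CR10 and 0 between dCas9_CR4 and dCas9_CR10, as did the 26 for the difference of both. The number of genes at an unadjusted p under 0.05 between KRAB_CR4 and KRAB_CR10 did move: 510 with the replicate block and lentiviral libraries only, against 132 without the block on all 18. In the blocked edgeR fit the adjusted p was 0.122 for HBG2, 0.173 for HBG1 and HBBP1 and 0.383 for HBE1. With the length trend also removed, the blocked edgeR fit gave 0.297 for HBG2 and HBG1 and 0.920 for HBE1 and HBBP1. The block changed no call.

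HBE1, HBG1, HBG2, HBD and HBBP1 were below 0 in 20 of 20 settings; HBB was at 0.20 without KRAB_CR10 library 1 and at -1.56 without KRAB_CR4 library 2. With 1 library left out at a time, HBG2 ranged from -0.65 to -0.46, HBE1 from -0.55 to -0.38, HBBP1 from -1.03 to -0.63 and HBD from -0.77 without KRAB_CR10 library 3 to -0.18 without KRAB_CR4 library 3; in the other settings HBG2 from -0.60 to -0.40 and HBE1 from -0.56 to -0.32. HBD moved by over 1.5 times when any of the 6 libraries but KRAB_CR4 library 1 was left out. For HBE1, HBG1, HBG2 and HBBP1 the lowest sizes came from removing the length trend, which also moved HBA1 to 0.28. The HBE1 over gamma ratio turned direction without KRAB_CR4 library 3 (log2 -0.0118) and ranged to 0.12 without library 1. Leaving out KRAB_CR4 library 2 moved RN7SL1 to -1.75 and RN7SK to -2.39. The causes were not tested. Depth limits HBB, with at most 12 counts a library.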

Other observations

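Levels that stood out between the KRAB groups and were chosen after the values were seen include CHST8, with 0, 2 and 2 counts in KRAB_CR4 and 16, 12 and 8 in KRAB_CR10 (unadjusted p = 0.0016 in the edgeR fit, adjusted p = 1.00). ACSM3, a mitochondrial enzyme of medium-chain acyl-CoA synthesis, read 104.4, 94.3 and 276.8 CPM in KRAB_CR4, against 83.8, 91.2 and 216.4 CPM in KRAB_CR10. It was far higher in the libraries numbered 3 with either guide, and its log2 fold change between the guides was 0.28 (95% interval -1.06 to 1.62). KRT8, an epithelial keratin that K562 cells express, was higher in each KRAB_CR4 library (513.2, 510.4 and 513.4 CPM) than in any KRAB_CR10 library (421.4, 493.2 and 467.9 CPM), at a log2 fold change of 0.15 (95% interval -0.26 to 0.56), a pattern that 333 of all tested genes (2.26%) showed.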
